A study of Mus musculus with 46 samples.

Results

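The 10 circadian clock genes Per1, Per2, Per3, Cry1, Arntl, Clock, Nr1d1, Dbp, Nfil3 and Bhlhe41 were taken by name, together with every ATAC-seq peak within 50 kb of their start sites in mm10. Of the 10 genes, 9 had a row among the 31854 genes of the RNA count table, while the RNA of Dbp was not analysed here. The windows around the 10 start sites held 122 of the 123721 peaks called over the feeding states, and 70 of the 67472 peaks called over sorted nuclei.

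RNA and nuclei came from the arcuate nucleus of male NuTRAP mice, in which Cre switches on a GFP-tagged ribosomal protein and an mCherry-tagged nuclear envelope protein. Crosses to AgRP-IRES-Cre (NuTRAP AgRP) or POMC-IRES-Cre (NuTRAP Pomc) restricted the tags to cells that express either Cre, so the RNA and ATAC-seq groups all carried the NuTRAP allele and a Cre driver. Ribosome-bound RNA was profiled from AgRP neurons of fed (n = 3), fasted (n = 4) and fasted, leptin-treated mice (n = 4), and from POMC neurons of the same states (n = 2 each). ATAC-seq was profiled from AgRP nuclei of the same states (n = 2 each) and from AgRP-positive and AgRP-negative sorted nuclei (n = 2 each). CUT&RUN peak lists, used by position, came from fed males with 1 sample each, for CTCF in AgRP neurons and for IRF3 in AgRP neurons of the IRF3-2D overexpression model, in which AgRP-IRES-Cre switches on a constitutively active IRF3. Whether the IRF3-2D mice also carried NuTRAP is not stated in the sources used here. The AgRP mice of the RNA and ATAC-seq groups were 6 to 11 weeks old, and 4 arcuate nuclei were pooled per sample. They were fed ad libitum or fasted for 18 to 20 h, injected i.p. between ZT 2 and ZT 4 with PBS vehicle (fed and fasted) or 5 mg/kg leptin, and taken 3 h later. Timing for the POMC mice is not given apart from this in the sources used here. Every AgRP state was sampled in a single window of the day, in which a change in the level of a rhythmic transcript and a shift in its phase cannot be told apart. Replicates are separate pools of mice where the methods say so. The p-values rest on the spread between these pools, which edgeR estimates in part from all features tested.

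The circadian clock is a transcriptional feedback loop found in most cells. CLOCK and ARNTL (also called BMAL1) bind E-boxes and drive the Per and Cry genes, whose proteins then inhibit CLOCK and ARNTL. Nr1d1 (REV-ERBα) is driven by the same E-boxes and represses Arntl through ROR elements, DBP activates and NFIL3 represses genes through D-boxes, and BHLHE41 (DEC2) competes for E-boxes. Food intake is a strong timing signal for clocks outside the suprachiasmatic nucleus, which is the light-entrained pacemaker.

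RNA libraries held 25581041 to 54511107 counts, ATAC-seq libraries of the 3 states 8263234 to 17190963, and sorted-nuclei libraries 8685497 to 11177208. Agrp averaged 383, 1334 and 1231 CPM (counts scaled to library size) in fed, fasted and leptin-treated AgRP libraries and 7.78 to 19.4 in POMC groups, whereas Pomc averaged 1309.7 to 1672 in POMC groups and 23.5 to 38.3 in AgRP groups. Both markers followed the labels. The 5 suprachiasmatic markers summed to 79.2 to 178 CPM over all AgRP libraries. Most of this was Avp, at 71.9 to 169.7 CPM, while Vip stood at 2.88 to 8.05. Of 25 marker genes of suprachiasmatic neurons, astrocytes, oligodendrocytes, microglia, tanycytes and endothelium, edgeR and DESeq2 called 0 between fasted and fed AgRP libraries, and 4 had an unadjusted p under 0.05 by edgeR. List medians ran from -0.66 (microglia, summed to 21.9 to 39.7 CPM fed and 15.6 to 37.4 CPM fasted) to 0.14 (tanycytes). Between leptin-treated and fasted libraries edgeR called 0 of the 25 (1 had an unadjusted p under 0.05) and DESeq2 called the tanycyte marker Vim, at 36.3 to 56.4 CPM fasted and 62.3 to 80.4 CPM after leptin (0.58, FDR 0.0158, and 0.57, FDR 0.0847 by edgeR). Between fed AgRP and fed POMC libraries both tools called 2 of 27, the suprachiasmatic markers Nms (-3.85, edgeR FDR 0.00726) and Prok2 (-2.84, edgeR FDR 0.0106), which were lower in AgRP neurons. Their part in the results was not tested.

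Promoter sequences of the members were read from RefSeq (GRCm38.p6), which gave 13 windows of 300 bases around a start, most of it upstream, for 9 of the 10 genes. Those below carry an E-box, D-box or ROR element next to genes of different RNA behaviour, with the match in capitals and the strand of the gene.
Per3, chr4:151044616-151044915, minus strand: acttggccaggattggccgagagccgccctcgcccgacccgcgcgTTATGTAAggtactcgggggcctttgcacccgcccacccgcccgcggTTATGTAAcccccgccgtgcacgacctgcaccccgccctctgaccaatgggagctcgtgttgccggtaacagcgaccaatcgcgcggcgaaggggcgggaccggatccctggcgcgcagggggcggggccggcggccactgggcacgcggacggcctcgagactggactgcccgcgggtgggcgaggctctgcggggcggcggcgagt
Cry1, chr10:85185005-85185304, minus strand: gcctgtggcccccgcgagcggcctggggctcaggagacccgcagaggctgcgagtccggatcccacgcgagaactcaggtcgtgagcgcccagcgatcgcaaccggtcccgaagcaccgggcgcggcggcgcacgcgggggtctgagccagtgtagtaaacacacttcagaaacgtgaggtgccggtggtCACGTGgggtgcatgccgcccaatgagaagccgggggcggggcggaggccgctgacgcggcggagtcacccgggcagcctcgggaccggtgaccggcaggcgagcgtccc
Bhlhe41, chr6:145865371-145865670, minus strand: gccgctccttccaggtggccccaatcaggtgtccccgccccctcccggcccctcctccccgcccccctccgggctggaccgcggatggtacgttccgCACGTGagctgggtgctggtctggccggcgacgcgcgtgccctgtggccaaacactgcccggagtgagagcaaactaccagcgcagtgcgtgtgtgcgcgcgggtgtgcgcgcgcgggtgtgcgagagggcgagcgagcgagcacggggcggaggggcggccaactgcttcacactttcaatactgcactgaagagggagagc
Arntl, chr7:113207261-113207560, plus strand: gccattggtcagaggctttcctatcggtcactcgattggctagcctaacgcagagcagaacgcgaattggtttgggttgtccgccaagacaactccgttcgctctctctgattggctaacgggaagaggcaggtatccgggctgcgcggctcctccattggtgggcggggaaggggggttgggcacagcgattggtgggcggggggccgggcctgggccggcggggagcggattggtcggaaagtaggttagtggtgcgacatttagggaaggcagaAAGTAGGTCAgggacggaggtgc
Motif positions here count from the RefSeq start of each window, which can differ from the outermost annotated start used for peaks below. Per3 held a pair of D-boxes (TTATGTAA or TTATGCAA, both strands searched) that began at -205 and -158. This motif was found in 1.66% of all 32851 RefSeq promoter windows. Cry1 held an E-box (CACGTG, its own reverse complement) at -60 and Bhlhe41 held one at -153, against 7.15% of all windows. The ROR element of Arntl began at 27, and 0.219% of all windows held one. A window at an internal start of Per1 (chr11:69098699-69098998) held an E-box at -166 and a D-box at -24. A STAT site (TTCNNNGAA, both strands) began at -99 in Dbp and at -210 in a further Per1 window, and 8.3% of all windows held one. The Clock, Nr1d1 and Nfil3 windows held none of the motifs searched.

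In fed AgRP neurons, Per1 was the most abundant member per kilobase of the table's gene length, at 20.2 ± 2.18 RPKM (SD, n = 3). Clock (16.4 ± 1.52 RPKM) and Nr1d1 (15.1 ± 1.25 RPKM) followed, and their library ranges overlapped each other but not those of Per1 or Per2. Per2, Bhlhe41, Cry1, Nfil3 and Arntl lay between 7.22 and 5.67 RPKM and were not separated from their neighbours in the order. Per3 was lowest, at 4.20 ± 0.614 RPKM. In fed POMC neurons Clock (16.9 ± 1.51 RPKM, n = 2) and Nr1d1 (16.7 ± 1.92 RPKM) came first and Per1 stood at 11.2 ± 3.97 RPKM. Per3 again had the lowest mean there, at 3.39 ± 0.638 RPKM, but its libraries overlapped those of Nfil3. The table's length for Nr1d1 is 2.774 times its annotated exon length and that for Arntl is 0.396 times. The RPKM of these 2 genes thus depends on the gene model more than the others. The order of Per1 against Nr1d1 and of Per3 against Arntl rests on these lengths. At 8537 bases, the table's length for Nr1d1 also exceeds the whole annotated gene, so its row may count reads from outside it. The row of Arntl may not hold the whole gene. Every comparison of Nr1d1 and Arntl RNA carries this limit. Nr1d1 shares 263 exon bases with the antisense gene Thra and Bhlhe41 shares 1280 with the antisense transcript Gm43909, and counting by strand is not stated, so reads there cannot be assigned to 1 gene.

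Fasting lowered Per2 and Per3 and raised Nfil3 in AgRP neurons. A gene was called where the edgeR quasi-likelihood FDR was under 0.05 and the log2 fold change over 0.5 in size, and 3 of the 9 members were called, against 3.89% of the 13401 genes tested (6.94% with the replicate number as a block, which called the same 3 members). By direction, 1 member was higher (2.82% of all genes) and 2 were lower (1.07%). The members were chosen with earlier results of these data known. The study itself names Nfil3 as raised by fasting and Bhlhe41 as raised by leptin. Shares of members called, here and below, are therefore descriptions and no test of the set. The median log2 fold change was -0.04 over the 9 members and 0.02 over all genes tested. In ribosome-bound RNA of a whole population, fewer cells that express a gene and less RNA per cell cannot be told apart. Nor can a change in how much of that RNA is bound to tagged ribosomes.

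Per2 and Per3 encode repressors of the feedback loop. Per2 was at 33.3, 64.3 and 32.4 CPM in the fed libraries, at 17.1, 22.0, 22.4 and 19.8 CPM in the fasted libraries, and at 17.1, 24.5, 20.1 and 20.9 CPM in the leptin-treated libraries. All fed libraries lay above all others, with 1 fed library well above the other 2. The log2 fold change of fasted against fed was -1.08 (SE 0.23, FDR 0.0199), and without fed replicate 3, the highest library, it was -0.68 and still called. The call of Per2 was lost without fasted replicate 1 (-1.0, FDR 0.0625) or fasted replicate 3 (-1.15, FDR 0.0507).

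Per3 was at 37.7, 50.7 and 45.9 CPM in fed libraries, at 20.3, 23.8, 20.1 and 24.2 CPM in fasted libraries, and at 18.2, 24.3, 19.8 and 22.6 CPM after leptin. Fed libraries again did not overlap with the others. The change was -1.01 (SE 0.14, FDR 0.00270), and leaving out each library in turn gave -1.12 to -0.91 and kept the call. Per1 did not pass the test, at 113 ± 12.2 CPM in fed and 119 ± 13.9 CPM in fasted libraries (0.09, FDR 0.844). Cry1, the cryptochrome partner of the PER proteins, was at 19.2 ± 5.63 and 18.9 ± 2.95 CPM (-0.01, FDR 0.988). The 95% interval of the Per2 change was -1.59 to -0.58 and that of Per3 was -1.32 to -0.69.

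Nfil3, the D-box repressor, was at 12.4, 10.5 and 14.8 CPM in fed AgRP libraries and at 39.6, 34.8, 34.5 and 40.3 CPM in fasted ones. The 2 groups were far apart. Its log2 fold change was 1.58 (SE 0.14, FDR 0.000594), with 1.47 to 1.70 when each library was left out. Of the activators, Clock was at 174 ± 16.1 CPM fed and 168 ± 25.7 CPM fasted (-0.04, FDR 0.939), and Arntl was at 16.9 ± 2.35 and 21.9 ± 2.78 CPM (0.38, FDR 0.184). Arntl stood at 18.7, 14.3 and 17.7 CPM in fed and at 26.0, 20, 20.3 and 21.3 CPM in fasted libraries, which did not overlap. With the block the FDR of Arntl was 0.00160 at a change of 0.44, under the fold threshold. Nr1d1, which represses Arntl, was at 128 ± 10.6 and 115 ± 20.6 CPM (-0.15, FDR 0.728, and -0.23, FDR 0.0463 with the block).

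**Figure D1:**
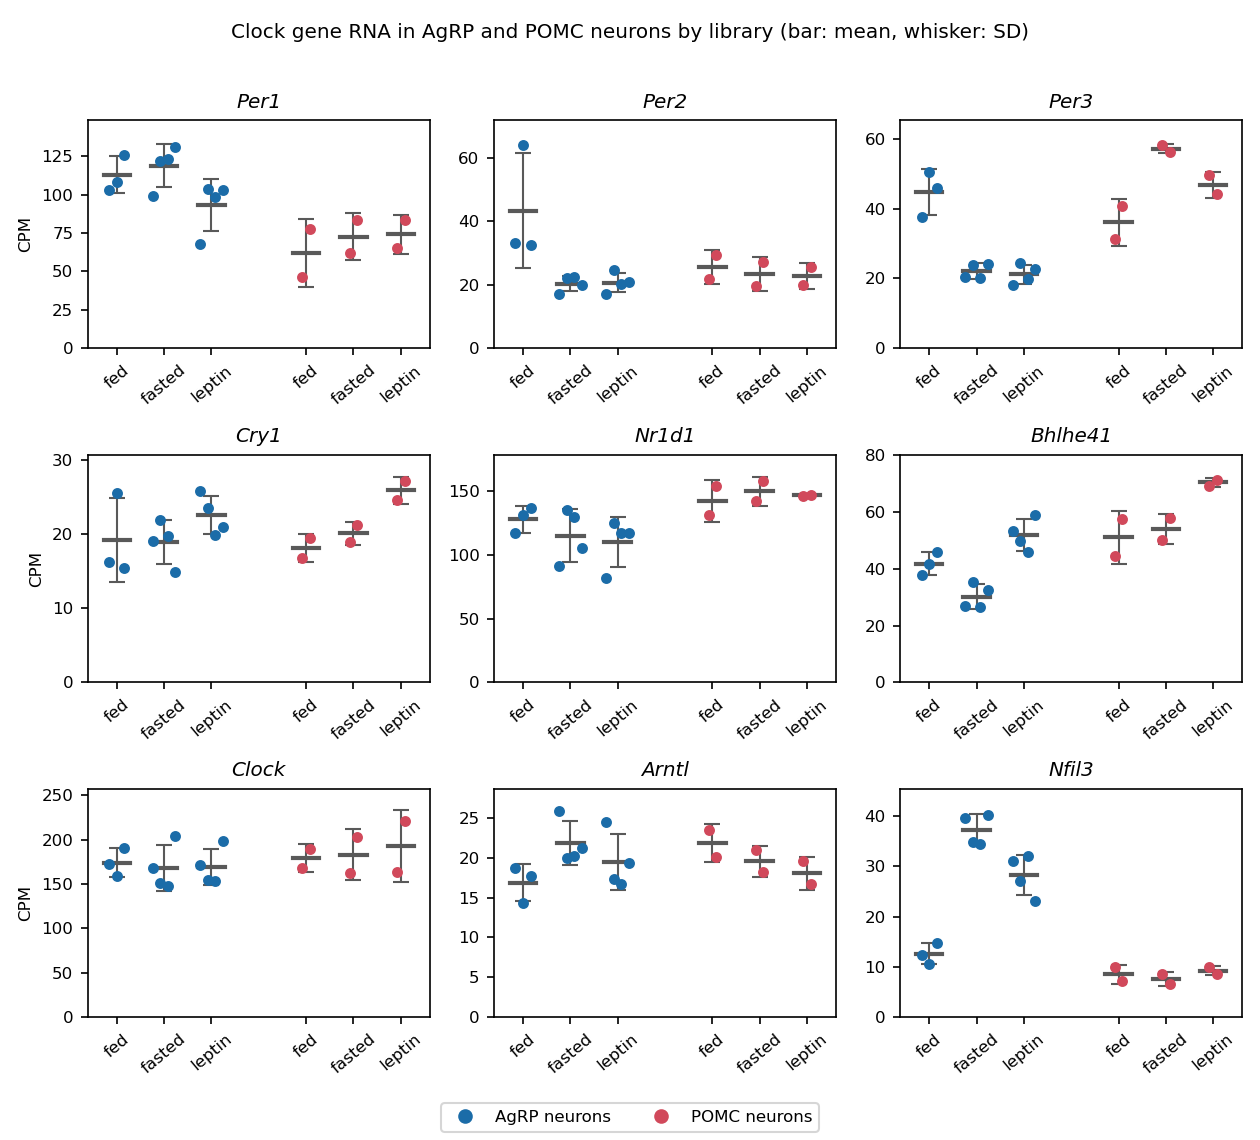
Each point is the CPM of a library for 9 clock genes (y axis, linear from 0) in fed, fasted and leptin-treated AgRP (blue) and POMC (red) neurons, with the group mean as a bar and the SD as a whisker. In AgRP neurons the fed points of Per2 and Per3 lie above the fasted and leptin-treated points, those of Nfil3 lie below, and Bhlhe41 is lowest in fasted libraries.

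Leptin 3 h after injection raised Bhlhe41 in fasted AgRP neurons. This E-box repressor was at 37.6, 41.7 and 45.7 CPM in fed, at 26.7, 35.2, 26.5 and 32.4 CPM in fasted and at 53.1, 49.7, 45.7 and 58.8 CPM in leptin-treated libraries. Every leptin-treated library was above every fasted one, and fasted libraries were below fed ones. The change of leptin-treated against fasted was 0.78 (SE 0.13, 95% interval 0.49 to 1.06, FDR 0.00918), and it remained called in all 8 fits that left out a library (0.70 to 0.86). Bhlhe41 was the 1 member called of 9, against 1.83% of all genes (1.19% higher and 0.634% lower, 2.91% in all with the block). The fasted against fed change of Bhlhe41 was -0.45 (FDR 0.0878, and -0.49 with FDR 0.00300 with the block), under the fold threshold in both.

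Per2, Per3 and Nfil3 were not called on leptin. Per2 and Per3 had leptin against fasted changes of 0.03 and -0.06. Nfil3 was at 31.0, 27.0, 32.1 and 23.2 CPM after leptin, below every fasted library and above every fed one. Its change was -0.40 (FDR 0.192, and 0.0461 with the block at -0.39). Per1 was at 67.9, 104, 98.3 and 103 CPM after leptin against 99.2, 122, 123 and 131 CPM in fasted libraries (-0.35, FDR 0.496, and -0.36 with FDR 0.00561 with the block). Cry1, Arntl, Clock and Nr1d1 changed by 0.25, -0.17, 0.01 and -0.06, which did not pass the test.

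Leptin-treated against fed AgRP libraries, which share the leptin-treated and the fed libraries with the comparisons above, had 3 of 9 members called, against 5.48% of all genes (8.57% with the block). Per2 (-1.06, FDR 0.0179) and Per3 (-1.07, FDR 0.00167) were lower (1.75% of all genes were) and Nfil3 (1.18, FDR 0.00103) was higher (3.73%). The Per2 call was lost without leptin-treated replicate 3 (-1.04, FDR 0.0531). Bhlhe41 was 0.33 higher (FDR 0.187).

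**Figure D2:**
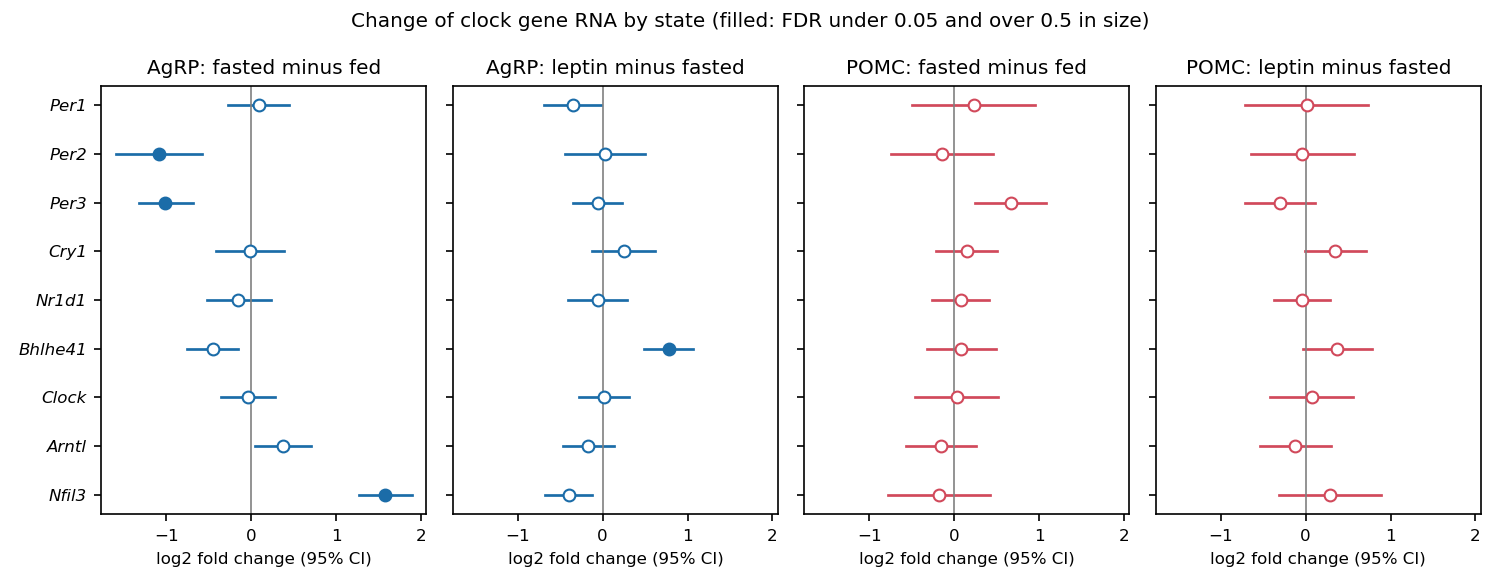
Log2 fold changes with 95% intervals (x axis) of 9 clock genes (y axis) for fasted minus fed and leptin minus fasted in AgRP (blue) and POMC (red) neurons, filled where FDR was under 0.05 and the size over 0.5. Filled points are Per2, Per3 and Nfil3 for fasting and Bhlhe41 for leptin, all in AgRP neurons.

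POMC neurons gave no called member by edgeR in either comparison, in which 0% of the 13412 genes tested were called. At an unadjusted p under 0.05, 135 genes were higher and 147 lower on fasting, 1 member among them, and 115 were higher and 36 lower on leptin, with no member among them. DESeq2 called 3 and 10 genes over the table and none of the members. Per3 was the member with p under 0.05, at 31.3 and 40.9 CPM fed and 58.2 and 56.4 CPM fasted (0.67, edgeR FDR 1.000). Both fasted libraries were above both fed ones, the opposite order to AgRP neurons. Nfil3 was at 9.86 and 7.16 CPM fed and 8.47 and 6.52 CPM fasted (-0.18), which overlapped. Bhlhe41 was at 50.1 and 57.7 CPM fasted and 69.2 and 71.3 CPM after leptin (0.37), again with no overlap.

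The fasting effect itself differed between AgRP and POMC libraries for Per3 and Nfil3. The libraries came from different crosses, and timing is not given apart for the POMC mice. Cell type, cross and time of sampling thus cannot be told apart. The difference, AgRP minus POMC, was -1.68 for Per3 (SE 0.22, 95% interval -2.15 to -1.22, FDR 0.00867) and 1.75 for Nfil3 (SE 0.26, 1.19 to 2.31, FDR 0.0160). These were 2 of 9 members against 0.164% of the 13435 genes tested. With the replicate block 6.22% of genes were called, and with them 5 members, namely Nfil3 (1.79) and Arntl (0.58, FDR 0.00586) as more positive and Per2 (-0.99, FDR 0.0112), Per3 (-1.75) and Bhlhe41 (-0.58, FDR 0.0183) as more negative. Without the block Per2, Arntl and Bhlhe41 differed by -0.95, 0.53 and -0.54 with FDR 0.429, 0.548 and 0.427. The Per3 and Nfil3 calls rest on few POMC libraries. They were lost without POMC fasted replicate 1 (FDR 0.0556 for both, at -1.66 and 1.95), without fasted replicate 2 (-1.72, FDR 0.0526, and 1.56, FDR 0.0868) and without fed replicate 1 (-1.50, FDR 0.0604, and 1.50, FDR 0.109), and that of Nfil3 also without TMM scaling (1.73, FDR 0.112). The leptin effect differed between the cell types for no member by edgeR, against 0.0819% of all genes, with 1 member at an unadjusted p under 0.05 and none called by DESeq2. The differences were -0.70 for Nfil3 and 0.40 for Bhlhe41.

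Between fed AgRP and fed POMC neurons no member was called by edgeR, against 2.17% of 13453 genes, while 2 had an unadjusted p under 0.05 and DESeq2 called 1. That 1 was Per1, at 103, 108 and 126 CPM in AgRP and 46.6 and 77.9 CPM in POMC libraries (0.86, edgeR FDR 0.156, DESeq2 FDR 0.0179). The AgRP libraries were all above the POMC ones. As above, cell type cannot be told apart from cross and time of sampling here. The suprachiasmatic markers Nms, at 0.123 to 0.349 CPM in fed AgRP and 3.33 to 4.18 CPM in fed POMC libraries, and Prok2, at 0.886 to 1.71 and 7.61 to 11.4 CPM, differed in the same comparison, and their part was not tested. Per2 was 0.76 higher (FDR 0.399) and Nfil3 0.56 higher (FDR 0.316). When libraries of all 3 states were used with the state as a covariate, 4 members were called against 13.7% of genes, with Per1 (0.62, FDR 0.00218) and Nfil3 (1.49, FDR 9.7e-05) higher and Per3 (-0.82, FDR 0.00402) and Bhlhe41 (-0.53, FDR 0.000594) lower in AgRP neurons. For Per3 and Nfil3 this average over states covers the difference in fasting effect given above. Per3 stood at a mean of 44.8 CPM in fed AgRP libraries, above the 36.1 CPM of fed POMC libraries (0.31, FDR 0.512), the opposite order, against 22.1 and 57.3 CPM in fasted libraries and 21.2 and 46.9 CPM after leptin. Nfil3 averaged 12.6 and 8.51 CPM fed, 37.3 and 7.50 CPM fasted and 28.3 and 9.23 CPM after leptin in AgRP and POMC neurons.

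Of 20 other clock genes, paralogs and regulators of the members, 19 passed the filter on low counts. Cry2 was left out, listed at 0 to 0.195 CPM over all libraries. The length the table gives for Cry2 is 0.294 times its annotated exon length, so its row may not hold the whole gene, and the level of Cry2 RNA in these neurons was not read from it. On fasting Bhlhe40, the paralog of Bhlhe41, was lower and Noct (nocturnin), a rhythmic enzyme gene, was higher, while the other 17 were not called (2 of 19, against 3.89% of all genes). On leptin Noct was the 1 called (against 1.83%). Bhlhe40 was at 45.3, 52.7 and 55.9 CPM fed, at 17.7, 26.8, 20.5 and 21.1 CPM fasted and at 25, 36.6, 32.6 and 33.3 CPM after leptin. Fed libraries lay above all others (-1.24, FDR 0.00212). Noct was at 68.9, 73.6 and 62.3 CPM fed, at 112, 111, 129 and 98.6 CPM fasted and at 58.7, 71.6, 75.1 and 53.8 CPM after leptin. It was higher in fasted libraries than in every other (0.73, FDR 0.00672, a call lost with library size scaling at 0.68, FDR 0.0669) and was lower after leptin (-0.80, FDR 0.00373).

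With the replicate block, 4 of the 19 were called on fasting, against 6.94% of all genes, which added Nr1d2 (-0.60, FDR 3.3e-05, against -0.53, FDR 0.0533), the paralog of Nr1d1, and Ciart (-1.20, FDR 0.000317, against -1.04, FDR 0.0860), a repressor of CLOCK and ARNTL. The block also added Bhlhe40 (0.57, FDR 0.000119, against 0.56, FDR 0.112) and Usp2 (-0.57, FDR 0.00162, against -0.56, FDR 0.242) on leptin, for 3 of the 19 against 2.91% of all genes. Nr1d2 was at 214, 261 and 205 CPM fed and at 136, 183, 175 and 128 CPM fasted, with no overlap. Leptin-treated against fed libraries had 3 of the 19 lower, against 1.75% of all genes, namely Bhlhe40 (-0.68, FDR 0.0301), Nr1d2 (-0.56, FDR 0.0341) and Arntl2 (-0.60, FDR 0.0419). The calls of Nr1d2 (-0.63 to -0.44) and Arntl2 (-0.67 to -0.51) were lost without any 1 of the 7 libraries, and that of Bhlhe40 without fed replicate 1 (-0.77), 3 (-0.65) or 4 (-0.61) or leptin-treated replicate 1 (-0.57) or 3 (-0.68). With the block Ciart was lower as well (-1.24, FDR 0.000218, against -1.06, FDR 0.0619), for 4 of the 19 against 8.57% in either direction. The fasting effect differed between AgRP and POMC neurons for none of the 19 by edgeR, with 4 at an unadjusted p under 0.05 and 3 called by DESeq2, and the block called 4 (Bhlhe40 -1.22, Nr1d2 -1.0, Ciart -1.83 and Noct 0.77, against 6.22% of all genes). The leptin effect differed for none by edgeR or DESeq2, with 2 at an unadjusted p under 0.05, and the block called Noct (-0.77, against 0.759% of all genes). Medians of the 19 were -0.10 on fasting and -0.04 on leptin, against 0.02 and -0.01 over all genes.

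Turning to chromatin, fasting changed 22 of the 114 member peaks that passed the filter, 15 fasted-opened and 7 fasted-closed. These are 19.3% of the member peaks, against 27.0% of all 102237 peaks tested (18.1% opened and 8.88% closed). Leaving out a library gave 14 to 18 calls, with 14 without fed replicate 1, the library of lowest depth, or without fasted replicate 1. In 56 of the 114 peaks the member was the nearest coding start, and 8 of these were opened and 7 closed, so all the fasted-closed peaks were among them. Dbp had 7 of 18 tested peaks called, Nfil3 3 of 9, Cry1 3 of 8 and Per3 3 of 12.

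Peaks that touch the start sites of the genes are the best tied to them. The start site is the outermost annotated start of a gene. The RefSeq windows of Per1 lie at later starts, whose peaks are not named here. Fasted-closed peaks stood at the starts of Dbp and Per3. That of Dbp was at 86.9 and 108 CPM fed, 52.8 and 71.5 CPM fasted and 51.2 and 58.4 CPM after leptin (fasted minus fed -0.65, FDR 0.00408). That of Per3, which covers the D-boxes printed above, was at 57.7 and 73.2 CPM fed, 40.9 and 50.4 CPM fasted and 37.8 CPM in each leptin-treated library (-0.53, FDR 0.0212). Fed libraries lay above the rest at both. The calls were lost without fasted replicate 1 (-0.44, FDR 0.0900 for Dbp and -0.38, FDR 0.207 for Per3) or fed replicate 2 (-0.49, FDR 0.0507 and -0.35, FDR 0.196), and that of Per3 also without TMM scaling (-0.47).

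The start-site peaks of Per2 (-0.41, FDR 0.0324), Cry1 (-0.42, FDR 0.0205) and Nfil3 (-0.41, FDR 0.0359) had an FDR under 0.05 at a change under the fold threshold. Clock, Bhlhe41, Arntl and Per1 had -0.35, -0.27, -0.15 and -0.10, and Nr1d1 had 0.31. The peak at the Nfil3 start thus had less signal in fasted libraries, in which Nfil3 RNA was higher. This order was common to promoters, since the 12854 peaks within 1 kb of any coding start had a median of -0.23 and 83.0% of them were below 0. In all, 3 of 12 tested peaks within 1 kb of a member start were fasted-closed, against 3.60% of such peaks at any coding start. Leptin-treated against fed nuclei gave 5 of 12 closed (7.39% at any coding start), namely the start-site peaks of Per2 (-0.56), Per3 (-0.80), Dbp (-0.83) and Nfil3 (-0.59) and a second Dbp peak. The Per2 call was lost with library size scaling (-0.49, FDR 0.00901), without fed replicate 2 (-0.40, FDR 0.0569) or without leptin-treated replicate 1 (-0.50, FDR 0.0422).

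**Figure D3:**
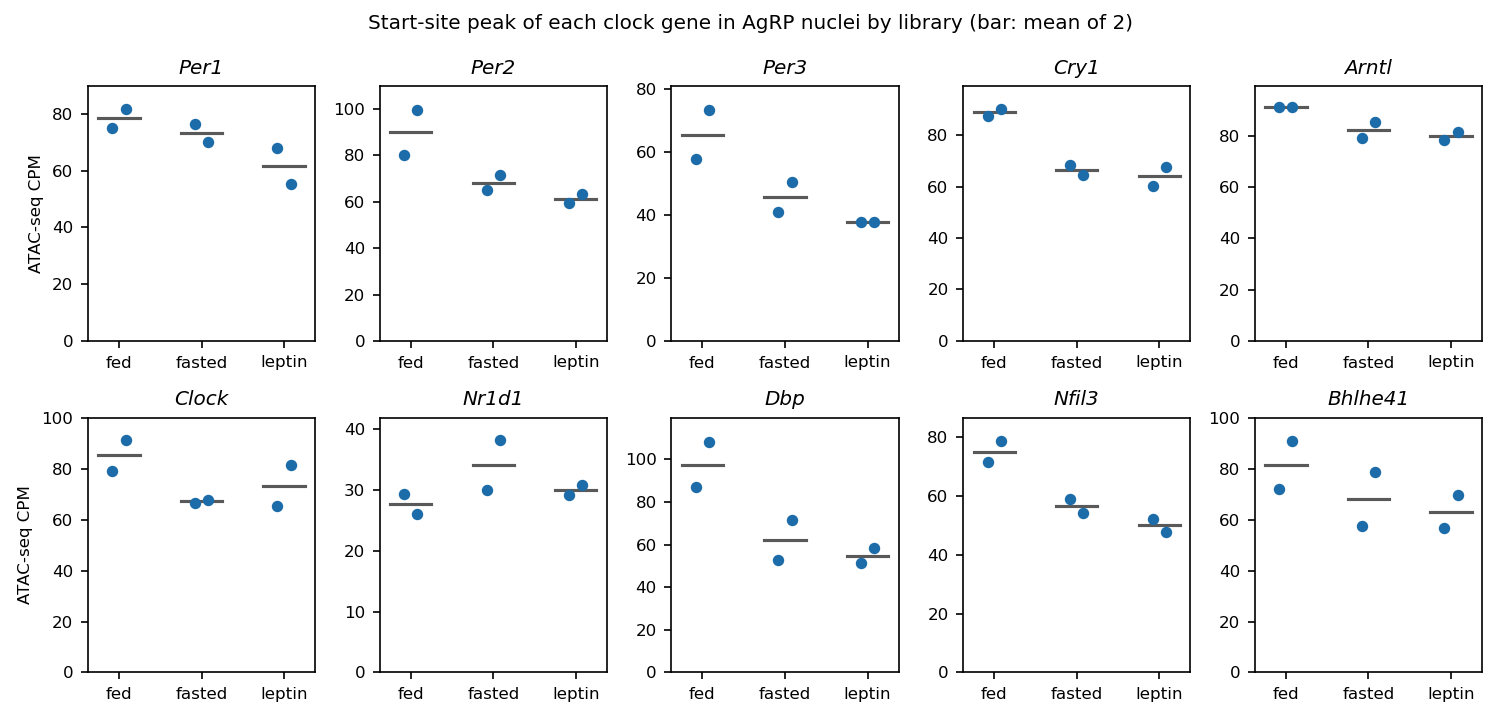
ATAC-seq CPM (y axis, linear from 0) of the peak at the start site of each of 10 clock genes in fed, fasted and leptin-treated AgRP nuclei, with a point per library and a bar for the mean of 2. Fed points lie above fasted points for Per2, Per3, Cry1, Arntl, Clock, Dbp and Nfil3, and overlap or lie below them for Per1, Bhlhe41 and Nr1d1.

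For no member was the peak of largest called change between states the peak at its start site. The sequences of 3 of these peaks are given in mm10 coordinates on the strand of the gene, for a fasted-closed peak of Dbp, a fasted-opened peak of Nfil3 and the leptin-closed peak of Per1. Capitals mark a cyclic AMP response element (TGACGTCA, its own reverse complement), the target of CREB. Of all 123663 windows of 300 bases centred on a peak, 0.685% held one. The sequences printed here are shorter, as they end with the peak. Of the 3 peaks only that of Per1 held the element.
Dbp, chr7:45705999-45706142, plus strand: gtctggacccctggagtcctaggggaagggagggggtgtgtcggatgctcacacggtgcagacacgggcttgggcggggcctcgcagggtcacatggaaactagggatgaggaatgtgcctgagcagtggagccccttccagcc
Nfil3, chr13:52973546-52973724, minus strand: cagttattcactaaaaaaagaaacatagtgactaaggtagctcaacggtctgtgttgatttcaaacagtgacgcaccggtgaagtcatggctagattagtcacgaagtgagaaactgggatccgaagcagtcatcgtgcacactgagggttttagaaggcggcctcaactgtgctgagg
Per1, chr11:69097111-69097317, plus strand: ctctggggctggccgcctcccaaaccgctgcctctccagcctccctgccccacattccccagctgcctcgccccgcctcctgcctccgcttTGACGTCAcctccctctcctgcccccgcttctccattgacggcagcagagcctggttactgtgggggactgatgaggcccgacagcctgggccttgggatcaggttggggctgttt
The Dbp peak lies within the gene, centred 982 bases after its start. It was at 9.56 and 11.3 CPM fed, 2.80 and 2.30 CPM fasted and 2.29 and 2.96 CPM after leptin, with fed nuclei far above the rest. Its change was -2.05 (SE 0.33, FDR 0.000196). A further Dbp peak, centred at 1812 bases, was also fasted-closed (-0.99, FDR 0.00549). With the start-site peak these made up the 3 fasted-closed peaks of Dbp. Peaks centred at 2681 and 4137 bases, further into the gene, were not called closed.

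Nfil3 had 3 fasted-opened peaks. The intronic peak printed above was at 0.496 and 0.360 CPM fed and 1.15 and 2.43 CPM fasted (2.10, FDR 0.0330). These are low counts, and the call was lost without fasted replicate 2 (1.47, FDR 0.242), fed replicate 1 (2.27, FDR 0.0899) or fed replicate 2 (1.82, FDR 0.217), and by DESeq2 (2.06, FDR 0.0537). A stronger peak in intergenic DNA, centred at -18948 bases and named after its values were seen, was at 4.34 and 6.70 CPM fed, 19.6 and 19.3 CPM fasted and 15 and 13.9 CPM after leptin (1.75, FDR 0.000233). Fed nuclei were well below both other states there, the order seen in Nfil3 RNA.

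Among the other fasted-opened peaks were introns of Per1 (centre at 7333 bases, 1.25, FDR 0.0116) and Per2 (1398 bases, 1.21, FDR 0.0150) and intergenic DNA near Cry1 (-26787 bases, 1.83, FDR 0.00655) and Arntl (-42556 bases, 1.60, FDR 0.00917). These calls were lost without fed replicate 1 (0.96, 0.94, 1.48 and 1.32, FDR 0.0769, 0.0994, 0.0559 and 0.0702), and those of Per1 and Per2 also without fasted replicate 1 (1.10, FDR 0.0610 and 1.09, FDR 0.0703). A peak 49227 bases from the Per3 start lay in an intron of Camta1 (1.78, FDR 0.00556), and a peak 20696 bases from the Nr1d1 start lay at a promoter of Thra (0.91, FDR 0.00932, lost without fasted replicate 1 at 0.80, FDR 0.0675). Bhlhe41 had 1 called peak, fasted-closed and intergenic, at 5.59 and 5.33 CPM fed, 1.02 and 1.56 CPM fasted and 3.05 and 1.90 CPM after leptin (-2.07, FDR 0.00103). Fasted nuclei were lowest and leptin-treated ones lay between, and the leptin against fasted change of 0.90 did not pass the test (FDR 0.383).

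Leptin against fasted nuclei had 1 of 114 member peaks called (0.877%), against 3.08% of all peaks, of which 0.669% closed (5.75% with the block, which called 3). It was the Per1 peak with the cyclic AMP response element, in an intron by the outermost Per1 start. Its centre lies 1734 bases before a later Per1 start, so it is upstream of that start. The peak was at 9.18 and 11.8 CPM fed, 17.2 and 13.1 CPM fasted and 8.47 and 6.64 CPM after leptin. Fasted nuclei were above leptin-treated ones (-1.02, FDR 0.0415), and the group means were in the order of those of Per1 RNA, whose change did not pass the test. The call was lost without fasted replicate 1 (-0.80, FDR 0.432), leptin-treated replicate 1 (-1.18, FDR 0.152) or leptin-treated replicate 2 (-0.83, FDR 0.499), and by DESeq2 (-1.0, FDR 0.0654).

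**Figure D4:**
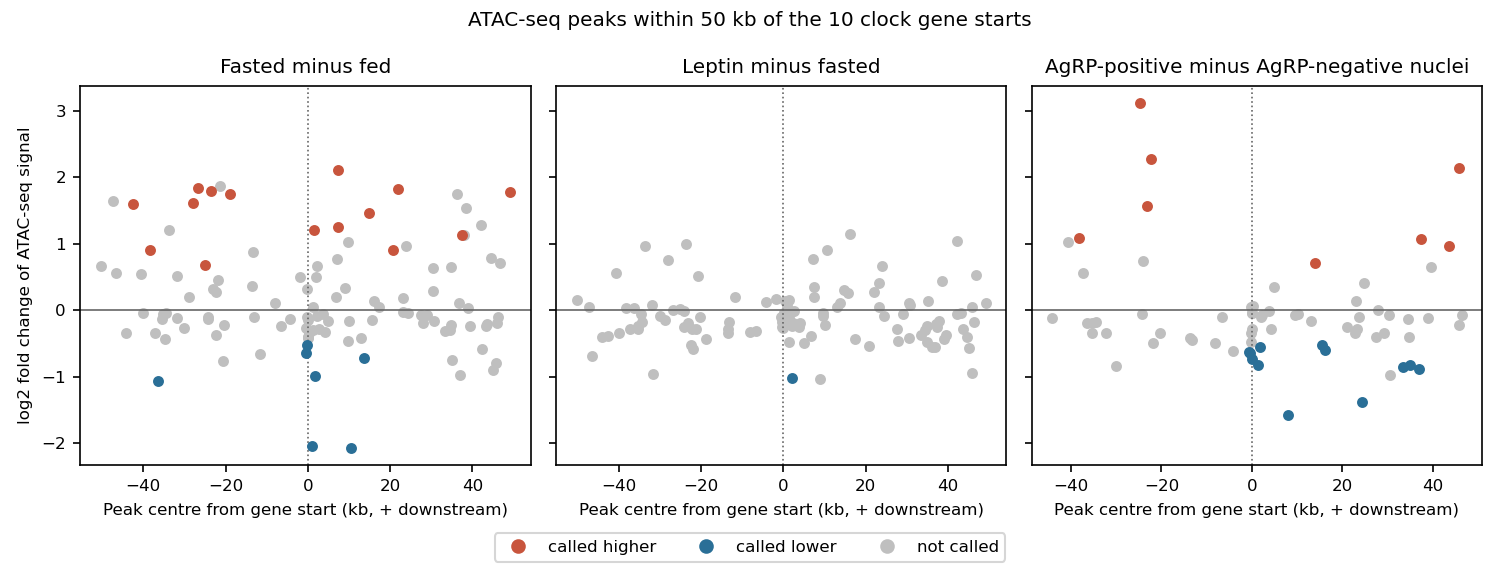
Log2 fold change (y axis) of each tested ATAC-seq peak within 50 kb of a clock gene start against the distance of its centre from that start (x axis, kb), for fasted minus fed, leptin minus fasted, and AgRP-positive minus AgRP-negative nuclei, coloured where called. In fasted nuclei the 15 opened peaks lie away from the start sites and 3 of the 7 closed peaks lie within 1 kb, and leptin against fasted nuclei have 1 coloured point.

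Leptin-treated against fed nuclei, which share libraries with both comparisons above, had 33 of 114 member peaks called (28.9%, against 36.8% of all peaks), 21 opened (23.3% of all) and 12 closed (13.5%), and 18 without leptin-treated replicate 1. The largest was a peak in an intron of Sec1, at -23658 bases from Dbp, at 3.23 and 1.87 CPM fed, 7.84 and 8.78 CPM fasted and 20.5 and 13.1 CPM after leptin (2.79, FDR 2.7e-05). Signal there was lowest in fed and highest in leptin-treated nuclei. Peaks at 42099 bases from Per3 (2.32) and 21938 bases in Cry1 (2.09) were also opened and one at 45790 bases in Arntl (-1.72) was closed, and these calls were kept without any 1 library. Other largest changes by gene were less firm. They were the Per1 peak at 7333 bases (1.44, lost without leptin-treated replicate 1 at 1.06, FDR 0.0634), a Per2 peak at -33666 bases (2.16, lost without fed or leptin-treated replicate 1 at 1.68, FDR 0.0508 and 1.75, FDR 0.0632) and a Clock peak at 23872 bases (1.62, lost without fed or leptin-treated replicate 2 at 1.17, FDR 0.183 and 1.61, FDR 0.0555). A Bhlhe41 peak at 16113 bases (1.28) and the intronic Nfil3 peak (2.44) were lost without fed replicate 2 (1.04, FDR 0.0986 and 2.16, FDR 0.103) or leptin-treated replicate 1 (0.98, FDR 0.108 and 2.02, FDR 0.0733). A Thra promoter peak near Nr1d1 (-0.70) was lost without fed replicate 2 (-0.64, FDR 0.116), leptin-treated replicate 1 (-0.72, FDR 0.105) or leptin-treated replicate 2 (-0.63, FDR 0.158).

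AgRP-positive nuclei differed from AgRP-negative arcuate nuclei at 20 of 70 member peaks (28.6%, against 39.6% of 66560 peaks), 8 higher (23.9% of all) and 12 lower (15.6%), and at 13 without AgRP-negative replicate 2. The feeding state of these mice is not given in the sources used here. Positive and negative nuclei came from the same pools, and FDR values here are from the fit without this pairing. They rest mainly on spread shared over all peaks, and do not measure that of a single peak between pools. Start-site peaks of Nr1d1 (-0.74, FDR 0.000626), Dbp (-0.64, FDR 2.4e-06) and Bhlhe41 (-0.63, FDR 3.1e-06) were lower in AgRP-positive nuclei. That of Bhlhe41 was at 84.1 and 88.3 CPM in AgRP-negative and 59.2 and 52.3 CPM in AgRP-positive nuclei, which did not overlap. All 5 called peaks around Nr1d1 were lower, 2 of them nearest to Thra. Those of Per1 (-0.48, FDR 0.000879), Per3 (-0.34, FDR 0.0286) and Nfil3 (-0.28, FDR 0.0448) had an FDR under 0.05 at a difference under the fold threshold. The start-site peaks of Per2, Cry1, Arntl and Clock differed by -0.05 to 0.06.

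Peaks away from the starts went both ways. The largest difference in favour of AgRP-positive nuclei lay at -24844 bases from Dbp, in an intron of Sec1 and nearest to Ntn5, at 3.08 and 2.01 CPM in AgRP-negative and 20 and 23.9 CPM in AgRP-positive nuclei (3.11, FDR 3.6e-25). The peak at this site was also fasted-opened, at 30.4 and 34.2 CPM fed and 58.1 and 45.9 CPM fasted (0.68, FDR 0.0143). Peaks at -22402 bases from Nfil3 (2.27, FDR 2.7e-08), at 45823 bases in an intron of Arntl (2.14, FDR 0.00014) and at -23176 bases from Per3 (1.56, FDR 2.7e-07) were higher as well. These distal peaks were named after their values were seen.

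Several motifs and CUT&RUN sites of the series fell in member peaks. The E-box occurred in the central 300 bases of 13 of the 122 peaks (10.7%, against 4.73% of all peaks), the D-box in 6 (4.92%, against 2.05%), the cyclic AMP response element in 5 (4.1%, against 0.685%) and the ROR element in 3 (2.46%, against 0.387%). Glucocorticoid response elements were in 2 (1.64%, against 2.25%), STAT sites (TTCNNNGAA) in 7 (5.74%, against 12.4%) and interferon-stimulated elements in 5 (4.1%, against 4.15%), all searched on both strands. Of the member peaks, 23.8% lay within 1 kb of a coding start, against 10.7% of all peaks, and motif shares differ between promoters and distal DNA. CUT&RUN peaks assigned to IRF3, from AgRP neurons of the IRF3-2D overexpression model, overlapped 22 of the 122 member peaks by at least 1 base (18%, against 8.42% of all), and those of CTCF in AgRP nuclei overlapped 31 (25.4%, against 17.9%). Among peaks within 1 kb of a coding start the shares were 37.9% for members and 29.1% for all peaks with IRF3, and 37.9% and 37.5% with CTCF.

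The genes whose mean log2 levels over the 6 RNA groups ran closest to a member were found for Per1, Nfil3 and Bhlhe41, by the root mean square difference after centring over 13196 genes. Nfil3 was followed by Gem (0.133), Fut4 (0.166) and Csrnp1 (0.206). Gem averaged 7.42 CPM in fed and 26.3 CPM in fasted AgRP neurons and Fut4 8.59 and 28.9 CPM, beside 12.6 and 37.3 CPM for Nfil3. Bhlhe41 was followed by Jak2 (0.113), Frat2 (0.117) and Adra1a (0.126), and Per1 by Chst14 (0.0424), 1700010I14Rik (0.0865) and Myrip (0.0870). The order is a description over 6 group means.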

How the data were processed

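Ribosome-bound RNA-seq, ATAC-seq and CUT&RUN tables were used as deposited. The RNA values are counts per gene that the authors made with HISAT2 and featureCounts (Subread), with a gene length column deposited beside them. The ATAC-seq values are deposited counts per peak, made by the authors with Bowtie2, MACS2 and bedtools on mm10, with the peaks of a table's libraries merged. CUT&RUN lists enter by position only. The deposited IRF3 list holds SEACR signal columns, and the deposited CTCF list holds MACS2 fold (a ratio) and −log10 p and q columns, none of which was analysed. The list assigned to IRF3 is the only SEACR list, and its name does not give the factor. Tool versions are not given in the sources used here.

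Genes and peaks with a mean over 1 CPM were tested over the whole table with edgeR 4.0.16 (TMM scaling, quasi-likelihood test, Benjamini-Hochberg FDR) in R 4.3.3. AgRP and POMC states were fitted apart, differences in effect were fitted as an interaction over both, and fed AgRP against fed POMC on fed libraries alone. Calls needed an FDR under 0.05 and a log2 change past 0.5 in either direction, as in the study. CPM printed for RNA comes from a single TMM scaling over 17 libraries. Alternatives were the replicate number as a block, library size scaling, DESeq2 1.42.0, no filter, leaving out each library, and other peak windows. The fit was tested on simulated counts. Intervals cover 95%.

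Samples of the same replicate number deviated together in AgRP RNA, with r = 0.534 to 0.812 over 10 pairs of libraries. Over 30 pairs of unlike numbers the median was -0.237 and the range -0.641 to 0.640, so the ranges overlapped. The numbers were taken to pair these samples. Sorted positive and negative nuclei come from the same pools. POMC RNA and ATAC-seq states have only 2 numbers each.

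Named are all members in each comparison, the other clock genes called in AgRP neurons, the 3 genes most like Per1, Nfil3 and Bhlhe41, and for each member its start-site peak and its largest called peak per state comparison. Members and lists were chosen with earlier results of these data known. Figures were drawn with Python 3.11.15 and matplotlib 3.10.9. Whole-arcuate RNA was not used here.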

Additional observations from a re-analysis of the deposited data

Results flagged for a closer look

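Per1 RNA in leptin-treated AgRP neurons had a library far below the other 3, at 67.9 CPM against 98.3 to 104 CPM. It was replicate 1, the number that was also lowest for Per1 in fed (103 CPM) and fasted (99.2 CPM) AgRP libraries. The gap to the nearest library passed Dixon's 95% value, in a search over 18 groups of 4 libraries, and chance flags about 1 in 20 groups.

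The fasting effect differed between AgRP and POMC libraries for Per3 (-1.68) and Nfil3 (1.75) by the edgeR interaction test on the log2 scale. As given above, both calls were lost without POMC fasted replicate 1, fasted replicate 2 or fed replicate 1. That of Nfil3 was also lost without TMM scaling. Cell type, cross and time of sampling cannot be told apart in this test. Per3 was lower in all 4 fasted than in all 3 fed AgRP libraries and higher in both fasted than in both fed POMC libraries. Nfil3 was higher in all 4 fasted than in all 3 fed AgRP libraries, while fed and fasted POMC libraries overlapped.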

How the results depend on the processing

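Of the counts of called members, those of AgRP RNA for fasting (3), leptin against fasted (1) and leptin against fed (3) and of POMC RNA (0) stayed within 1.5 times under the replicate block, library size scaling, DESeq2 and no filter. Leaving out a library gave 2 to 3, 1, 2 to 3 and 0. With the replicate block the members whose fasting effect differed between cell types went from 2 to 5, the other clock genes called from 2 to 4 (fasting) and from 1 to 3 (leptin) in AgRP neurons and from 0 to 4 (fasting) and 0 to 1 (leptin) for the difference between cell types, and member peaks called on leptin against fasted from 1 to 3. The pairing by replicate number changed no other call count of AgRP RNA or sorted nuclei past 1.5 times (21 against 20 peaks in sorted nuclei). For POMC RNA and the ATAC-seq states the block called 0 and 0 members, and 27 and 38 peaks on fasting and leptin against fed, while same-numbered libraries correlated at 0.732 to 0.768 and at -0.00145 to 0.160. No fit with the replicate block was possible for fed AgRP against fed POMC. Blocks within each cell type leave no spread between libraries to test against. The groups come from different crosses, so their numbers do not pair them.

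Fed AgRP against fed POMC called 1 member with library size scaling or DESeq2 and 4 with all states, against 0. Library size scaling gave 1 for the difference in fasting effect and 1 for the other clock genes on fasting (without Noct, 0.68), where DESeq2 gave 4. On leptin DESeq2 gave 2 other clock genes. Leptin against fasted peaks numbered 3 with library size scaling, 0 with DESeq2 and 2 with no filter. Leaving out each library gave 0 to 1 for fed AgRP against POMC, 0 to 2 for the difference in fasting effect, 1 to 2 for other clock genes on leptin, 14 to 18 peaks on fasting (22 with all libraries), 0 to 1 on leptin against fasted, 18 to 32 on leptin against fed (33) and 13 to 16 in sorted nuclei (20). The cause was not tested. Changes near 0 turned sign when a library was left out, with ranges of -0.16 to 0.26 for Cry1 and -0.16 to 0.02 for Clock on fasting, -0.06 to 0.11 for Per2, -0.13 to 0.01 for Per3, -0.08 to 0.14 for Clock and -0.17 to 0.06 for Nr1d1 on leptin, and -0.40 to 0.07 for Nfil3 on fasting in POMC neurons. Windows of 10 kb or 200 kb, or every transcript start, moved no share of called peaks outside its 95% interval. These windows share peaks, and peaks of a gene are not independent. The interval therefore cannot test how far the shares depend on the window. With 2 libraries per group in POMC RNA and ATAC-seq, a change that missed the threshold may be one this design could not detect.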
